A study of Oryza sativa with 8 samples.

Results

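Isolated close pairs of OsChz1 peaks are neighbouring peaks that lie near each other and far from every other peak of the same list. They were taken from the anti-MYC ChIP-seq peaks of the complemented rice line COM1. Neighbours were kept when the gap, the number of bases between the end of one peak and the start of the next, was under 1000 bp and no other COM1 peak lay within 5000 bp of either. This gave 548 pairs, whose 1096 members were 9.65% of the 11356 COM1 peaks. The pairs were thus chosen by the positions of the COM1 peaks, and the number of pairs and the range of their gaps follow from this choice. Widths and the presence of the members in the other lists were not used by it.

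The 8 libraries of the series fell into 4 groups of 2. COM1 expresses MYC-tagged OsChz1 from the native OsChz1 promoter in the oschz1 mutant background (genotype OsChz1-MYC/oschz1), and gave anti-MYC ChIP and input libraries. The oschz1 mutant (oschz1-1) carries the same mutated gene, a frameshift made with CRISPR/Cas9, without the tagged protein, and gave the same kinds of libraries as the background of the antibody. Both genotypes are single lines, and each library came from whole seedlings of 30 days grown with 14 h of light at 30 °C and 10 h of darkness at 28 °C, so that many cell types contributed to each peak. The deposited data used here are 1 COM1 peak list, 1 oschz1-1 peak list of 170 peaks and a list made by the authors. The latter holds 4865 regions where COM1 exceeded oschz1-1 and is called the differential list here. The study defines its OsChz1-occupied peaks by this comparison, so that COM1 peaks outside the differential list are not counted among them. The lists hold only chromosome, start and end on the MSU7 assembly. They give no signal, summit, read number or replicate for a peak. The depth behind each peak can therefore not be read from them, and no value below has a replicate error. Read totals of the libraries and signal tracks of each replicate, which the study names elsewhere, were not used here. Because peaks of 1 list are not replicates, classes of peaks were not tested against each other. Intervals are 95% intervals (Wilson for shares, binomial order statistics for medians) that cover counting error over peaks only.

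OsChz1 is the CHZ-domain protein of rice, a histone chaperone that binds histone dimers of H2B with H2A or with its variant H2A.Z. A nucleosome wraps DNA around a histone octamer that contains a pair of these dimers, and neighbouring nucleosomes are separated by linker DNA, so that they recur along the fibre with a repeat length a little under 200 bp in most plants. H2A.Z often marks the first nucleosomes of genes. A repeat of 190 bp was taken here as a ruler for the distance between the partners of a pair.

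The partners were separated by 202 to 994 bp, with a median gap of 461 bp (419 to 508) and an interquartile range of 313 to 710 bp. The gaps were most frequent at the short end. A gap of 200 to 400 bp was found in 228 pairs, which is 41.6% (37.6 to 45.8%). The next 200 bp, from 400 to 600 bp, held 121 pairs, and 104 and 95 pairs had gaps of 600 to 800 bp and of 800 to 1000 bp. In bins of 38 bp, 5 to each repeat of the ruler, the number fell from 45 pairs at 380 to 418 bp to 22 pairs at 418 to 456 bp, and stayed between 13 and 26 pairs per bin from there to 988 bp.

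No gap was shorter than 202 bp, neither among the pairs nor among all 11343 gaps of the COM1 list, and no COM1 peak was narrower than 201 bp. The narrowest gap was 208 bp in the differential list and 278 bp in the oschz1-1 list. Gaps under 1 repeat of the ruler were therefore not seen at all in the 548 pairs. This floor is longer than the ruler, so that neighbouring nucleosomes bound separately cannot be told apart in these lists.

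In units of the ruler, 204 pairs (37.2%, 33.3 to 41.3%) had a gap of at least 1 and under 2 repeats. The following repeats held 127 pairs (23.2%), 101 pairs (18.4%) and 93 pairs (17.0%), and 23 pairs had a gap above 5 repeats, in the remainder up to 1000 bp. A preference for whole multiples of the ruler would show as an excess of pairs at the same place in each repeat. Of the 321 pairs with gaps from 2 to under 5 repeats, 88 (27.4%, 22.8 to 32.5%) lay in the first 38 bp of a repeat, and the following bins of 38 bp held 67, 50, 59 and 57 pairs. The bin of 380 to 418 bp alone supplied 45 of these 88 pairs. The corresponding bins after 3 and 4 repeats held 23 and 20 pairs, close to their neighbours. With rulers of 180 and 200 bp, the first of 5 equal bins held 22.7% (18.4 to 27.6%) and 25.6% (21.2 to 30.7%). The gaps thus showed no series of recurring maxima at the spacing of nucleosomes under these rulers. Whether bound nucleosomes kept a regular spacing cannot be decided from these gaps. A gap runs between peak borders, and the widths of the peaks varied.

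Distances between the midpoints of the partners, which add the flanking parts of both peaks to the gap, ranged from 425 to 1848 bp with a median of 883 bp (859.5 to 923.5). This is 4.65 repeats of the ruler. From 3 to under 4 repeats there were 140 pairs (25.5%), from 4 to under 5 there were 130 (23.7%), and from 5 to under 6 there were 107 (19.5%). For pairs from 2 to under 5 repeats apart, the 5 bins of a repeat held 62, 52, 72, 70 and 54 of 310 pairs, with overlapping intervals. The bins were less even with the other rulers. The first bin held 13.9% (10.4 to 18.4%) at 180 bp and 13.8% (10.5 to 17.8%) at 200 bp. The last bin held 24.4% (19.8 to 29.7%) and 25.8% (21.5 to 30.7%), so that these intervals did not overlap. This dependence on the ruler was not tested. The lists give no summits, and a midpoint can lie away from the strongest signal of a wide peak.

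**Figure D1:**
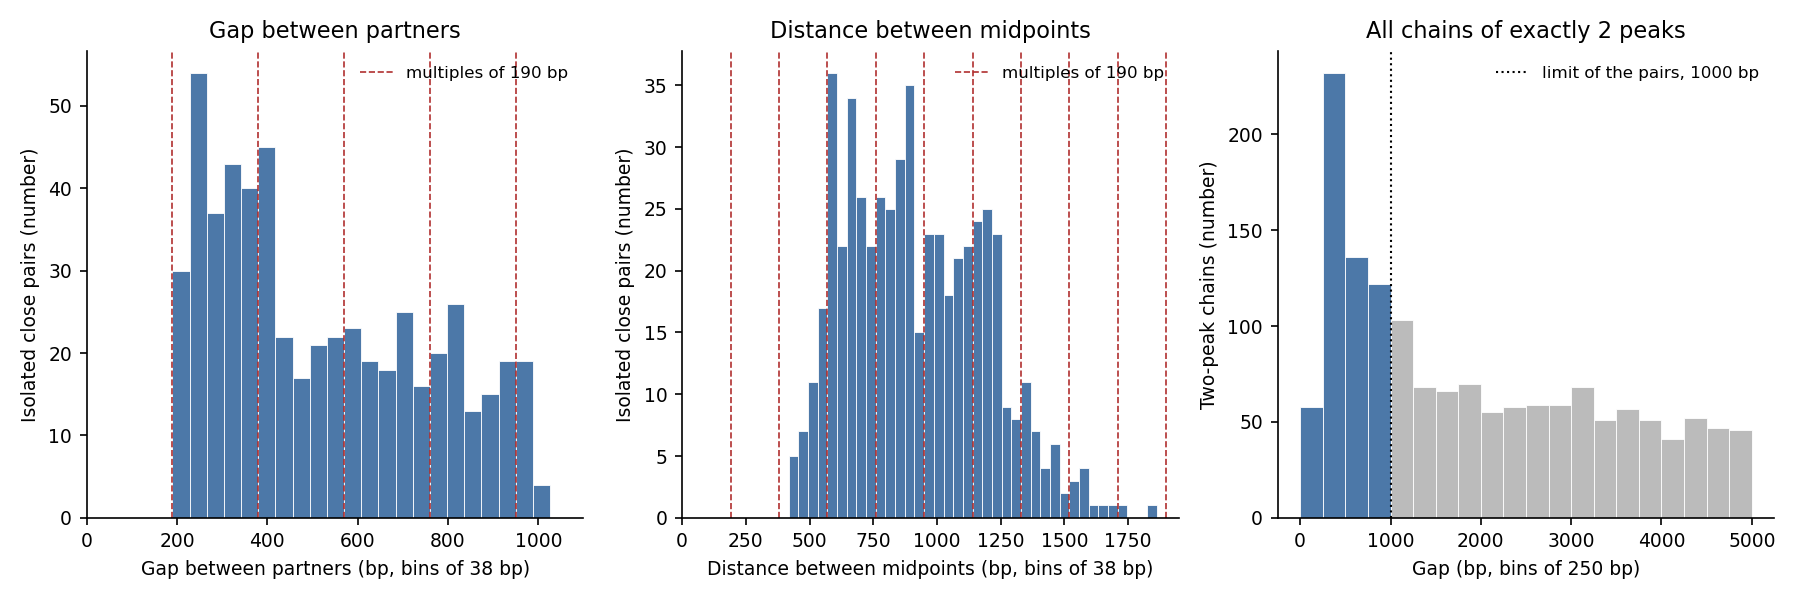
Number of isolated close pairs by the gap between the partners (left) and by the distance between their midpoints (centre), both in bp with dashed lines at multiples of 190 bp, and number of all chains of exactly 2 peaks by gap up to 5000 bp (right), where the coloured bars are the pairs. Gaps began at 202 bp, were most frequent under 418 bp and had no recurring maxima at the dashed lines, and the number per bin went on falling across the limit of 1000 bp.

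At the limit of 1000 bp the gaps had no natural break. Chains of exactly 2 peaks, with no other peak within 5000 bp, had 136 gaps of 500 to 750 bp, 122 of 750 to 1000 bp, 103 of 1000 to 1250 bp and 68 of 1250 to 1500 bp. Just inside the limit stood a pair on chromosome 9 from 13244130 to 13245713 with a gap of 994 bp between peaks of 356 and 234 bp. A pair on chromosome 1 from 1976811 to 1978447 (272 and 372 bp) and a pair on chromosome 4 from 8206248 to 8207725 (262 and 223 bp) both had gaps of 993 bp. In each of these 3 pairs exactly 1 partner was differential. The nearest chains outside the limit were located on chromosome 11 from 9602014 to 9603631, with a gap of 1008 bp and both peaks differential, on chromosome 3 from 23654830 to 23656371, with a gap of 1010 bp and no differential peak, and on chromosome 6 from 29871394 to 29873208, with a gap of 1010 bp and 1 differential peak. These chains were picked for the gaps nearest to the limit, so that their likeness in gap follows from the choice. Width and status varied among them.

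At the narrow end were a pair on chromosome 1 from 38133797 to 38134796 and a pair on chromosome 4 from 28870583 to 28872112, each with a gap of 202 bp. Their peaks measured 440 and 358 bp on chromosome 1 and 436 and 892 bp on chromosome 4, and in both pairs only the right partner was differential. The next pair, on chromosome 6 from 7067197 to 7069157, had a gap of 203 bp between peaks of 1173 and 585 bp, neither of them differential. Even at the shortest gaps in the list, the status of the partners could therefore differ.

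The 548 pairs were 48.7% of the 1126 neighbours with a gap under 1000 bp. In the other 578, a further peak lay within 5000 bp, and their gaps had a median of 449 bp (415 to 489) and an interquartile range of 314 to 671 bp. Of these, 42.2% were under 400 bp, against 41.6% of the isolated pairs. Gaps of 800 to 1000 bp made up 12.6% (10.2 to 15.6%) of them and 17.3% (14.4 to 20.7%) of the isolated pairs. These intervals overlap, and the difference was not tested. Outside the pairs, the nearest other COM1 peak lay at 5045 to 176968 bp, with a median of 14188 bp (13190 to 15869).

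The members of the pairs were 201 to 1918 bp wide, with a median of 325 bp (312 to 334) and an interquartile range of 253 to 465 bp. Single peaks, with no neighbour within 5000 bp, had a median of 305 bp (301 to 310, 6192 peaks). The median of all COM1 peaks was 317 bp (314 to 320), inside the interval of the members. Peaks of chains of 2 with a gap of 1000 to 5000 bp had 319 bp (310 to 326, 1904 peaks), those of chains of 3 had 337 bp (323 to 349, 1173 peaks), and those of chains of 4 or more had 369 bp (351 to 382, 991 peaks). The interval of the paired peaks did not overlap that of the single peaks and overlapped those of the chains of 2 and of 3. A width of 800 bp or more was found in 73 members (6.66%, 5.33 to 8.29%) and in 239 single peaks (3.86%, 3.41 to 4.37%). It was found in 5.04% (4.15 to 6.12%) of the peaks in chains of 2 with the wider gap, in 6.91% (5.59 to 8.50%) of the peaks in chains of 3, in 8.27% (6.72 to 10.2%) of those in chains of 4 or more, and in 5.03% (4.64 to 5.45%) of all COM1 peaks. These differences between classes were not tested.

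Within a pair, the wider partner had a median of 421 bp (398 to 439) and the narrower one of 263 bp (254 to 273). Their ratio had a median of 1.47 (1.40 to 1.54) and an interquartile range of 1.19 to 2.01. The partners were within 1.1-fold of each other in 86 pairs (15.7%), and differed by 2-fold or more in 140 pairs (25.5%, 22.1 to 29.4%) and by 4-fold or more in 13. No side was preferred. The left partner, at the lower coordinate, was the wider one in 282 pairs and the right one in 266, and their medians were 328.5 and 321.5 bp. The width of one partner said little about that of the other, with a Spearman correlation of 0.037 over the 548 pairs and a Pearson correlation of log2 widths of 0.047. These are descriptions over pairs of 1 list, which share its libraries and its width floor of 201 bp.

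**Figure D2:**
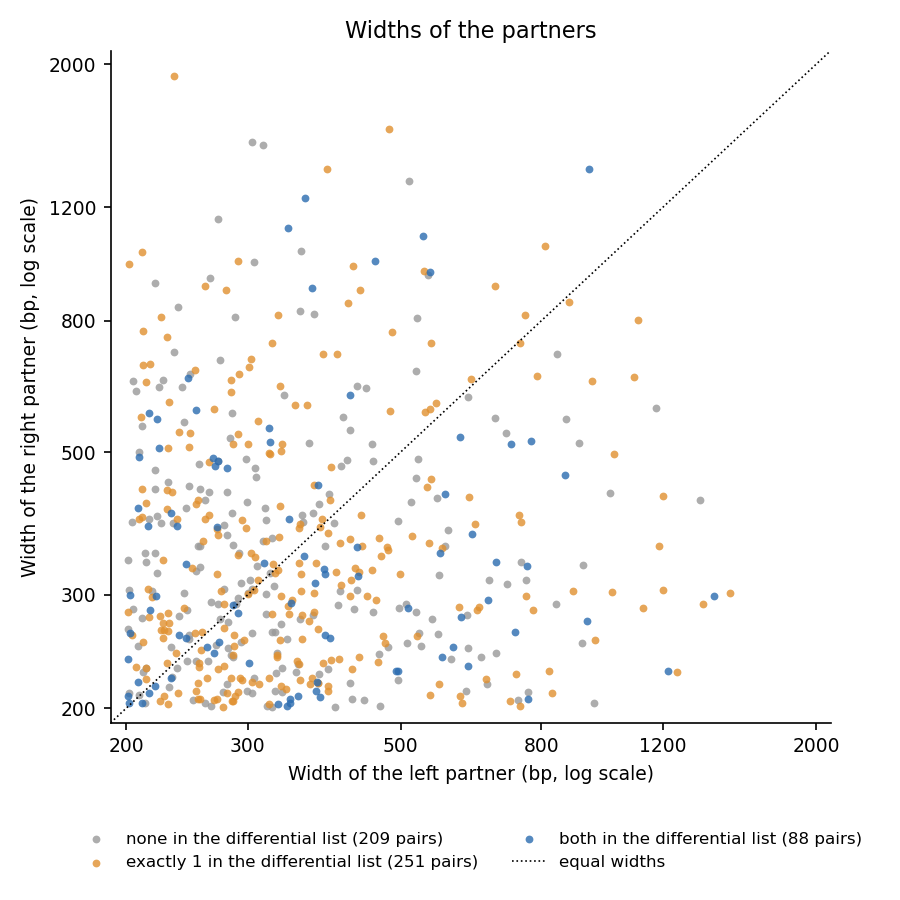
Width of the right partner against width of the left partner in bp on log scales, 1 point for each of the 548 pairs, coloured by the number of partners in the differential list. The points fill both sides of the line of equal widths (282 and 266 pairs), and all 3 colours are spread over the whole range.

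The largest ratio, 8.16, belonged to a pair on chromosome 8 from 15643156 to 15645701, in which a differential peak of 1918 bp followed a peak of 235 bp after a gap of 393 bp. It was followed by a pair on chromosome 3 from 12447664 to 12449678, with peaks of 1258 and 228 bp, the wide one differential, and by one on chromosome 2 from 34959026 to 34961328, with peaks of 1222 and 229 bp, both differential. In these 3 pairs the narrow partner was close to the width floor of 201 bp. At the other extreme stood nearly equal partners, of 382 and 383 bp on chromosome 5 from 18564372 to 18565453, of 300 and 301 bp on chromosome 5 from 28525537 to 28526945, and of 289 and 290 bp on chromosome 6 from 26691211 to 26692152. Both equal pairs on chromosome 5 had exactly 1 differential partner, and the pair on chromosome 6 had none.

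From the first base of the left partner to the last base of the right one, the pairs spanned 630 to 3004 bp, with a median of 1289.5 bp (1238 to 1330). The peaks themselves covered a median of 61.2% of the span (59.8 to 63.0%). In sum they covered 439 kb, and the gaps between them 285 kb. The gap was wider than either partner in 290 pairs (52.9%) and narrower than either in 110 (20.1%). A single pair spanned more than the widest COM1 peak of 2751 bp. Gap and summed width were weakly and inversely related (Spearman correlation of -0.100, 548 pairs), again as a description.

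Differential status, that is, overlap with a region that the authors list as higher in COM1 than in oschz1-1, was next determined for each member. A differential region was found at 427 of the 1096 members, which is 39.0% (36.1 to 41.9%), whereas 42.8% of all COM1 peaks (41.9 to 43.8%) were differential. Each of the 427 had the borders of its differential region. The share was 43.6% (42.4 to 44.8%) in single peaks and 44.6% (42.4 to 46.8%) in chains of 2 with a gap of 1000 to 5000 bp, both with intervals above that of the pairs. In chains of 3 it was 40.7% (37.9 to 43.5%), and in chains of 4 or more it was 41.6% (38.5 to 44.7%), with intervals that overlap it. These differences between classes were not tested either.

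Among the pairs, the differential share was next read by gap. It was 37.5% (33.2 to 42.0%) of 456 members at gaps of 200 to 400 bp and 36.4% (30.6 to 42.6%) of 242 at 400 to 600 bp. At gaps of 600 to 800 bp it was 41.8% (35.3 to 48.6%) of 208, and at 800 to 1000 bp it was 42.6% (35.8 to 49.7%) of 190, close to the 42.8% of all COM1 peaks. All 4 intervals overlap one another, and the order was not tested. In classes of 100 bp the share did not change steadily with the gap, with 38.2% at 200 to 300 bp, 36.7% at 300 to 400 bp, 31.5% (23.9 to 40.1%) at 400 to 500 bp and 41.5% (33.0 to 50.5%) at 500 to 600 bp. Beyond the limit, at gaps of 1000 to 2000 bp, 45.3% (41.4 to 49.2%) of 614 peaks were differential, and the next classes of 1000 bp had 41.3% (36.9 to 45.9%), 46.5% (41.9 to 51.1%) and 45.2% (40.2 to 50.3%).

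**Figure D3:**
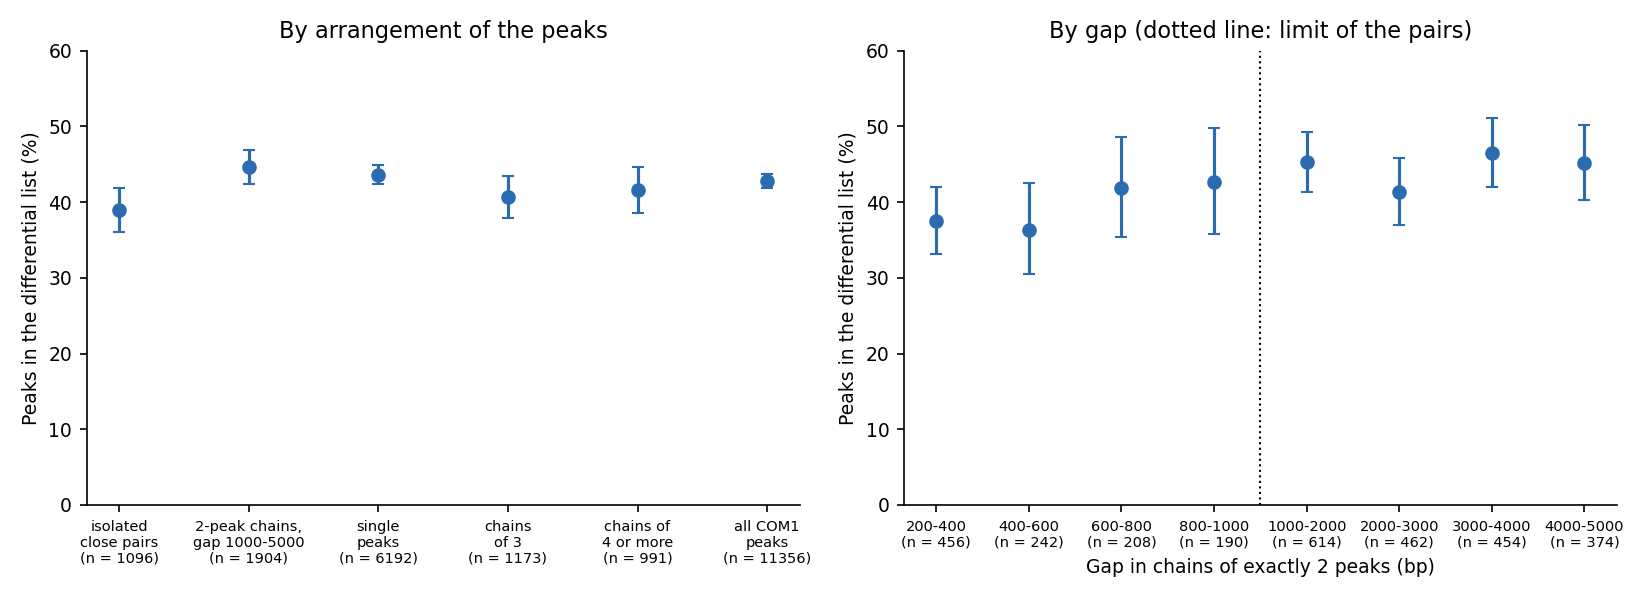
Share of COM1 peaks in the differential list in percent, with 95% Wilson intervals, by the arrangement of the peaks (left) and by the gap in chains of exactly 2 peaks (right). The paired peaks stand at 39.0%, below single peaks at 43.6%, and the intervals of the gap classes under 1000 bp overlap one another.

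Both partners were differential in 88 pairs (16.1%, 13.2 to 19.4%), exactly 1 in 251 pairs (45.8%, 41.7 to 49.99%) and none in 209 pairs (38.1%, 34.2 to 42.3%). In chains of 2 with a gap of 1000 to 5000 bp, these shares were 21.0%, 47.2% and 31.8%. In the 578 close neighbours with a further peak nearby, they were 19.2%, 42.9% and 37.9%. A large share with exactly 1 differential partner was thus not particular to the isolated pairs. The status of one partner told little about the other. When the left partner was differential, so was the right one in 88 of 216 pairs (40.7%, 34.4 to 47.4%). When it was not, the right one was differential in 123 of 332 pairs (37.0%, 32.0 to 42.4%). The corresponding shares were 46.8% (40.6 to 53.2%) and 35.8% (30.9 to 41.0%) for the 578 close neighbours with a further peak nearby, and 47.4% (42.7 to 52.2%) and 42.8% (38.7 to 47.1%) for chains of 2 with a gap of 1000 to 5000 bp. A larger distance between these shares was thus seen in the neighbours that were not isolated, which was not tested. A peak can belong to more than 1 of these 578 neighbours, which their intervals do not take into account.

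Pairs with both, 1 or no differential partner had median gaps of 527.5 bp (392 to 630), 477 bp (411 to 548) and 426 bp (398 to 494), with overlapping intervals. Their summed widths were also near each other, with medians of 722.5, 728 and 695 bp. In the 251 pairs with exactly 1 differential partner, it was the wider one in 137 (54.6%, 48.4 to 60.6%) and the narrower one in 114, and it was the left one in 128 and the right one in 123. The differential partners of these pairs had a median width of 323 bp and the other partners of 331 bp. Over all pairs, 41.1% (37.0 to 45.2%) of the wider and 36.9% (32.9 to 41.0%) of the narrower partners were differential.

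The pair with the largest summed width, 2312 bp, had 2 differential partners of 937 and 1375 bp and was located on chromosome 2 from 34422191 to 34425194. It was the one pair that spanned over 2751 bp. The next ones of this kind were located on chromosome 5 from 25464982 to 25467408 (1424 and 299 bp) and on chromosome 1 from 15393485 to 15395449 (538 and 1082 bp). Of the pairs with exactly 1 differential partner, that on chromosome 8 with the peak of 1918 bp was the widest. It was followed by a pair on chromosome 9 from 15320515 to 15323213 (481 and 1588 bp) and one on chromosome 3 from 7068210 to 7070465 (1106 and 802 bp), and in all 3 the right partner was differential. Wide peaks were also found in pairs without a differential partner, on chromosome 11 from 3454046 to 3456130 (514 and 1317 bp), on chromosome 2 from 25006866 to 25008935 (305 and 1515 bp) and on chromosome 4 from 4358923 to 4361012 (316 and 1501 bp). These 3 pairs had gaps of 250 to 273 bp, and in each the right peak was the wider one. The genes at all of these positions were not analysed here.

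**Figure D4:**
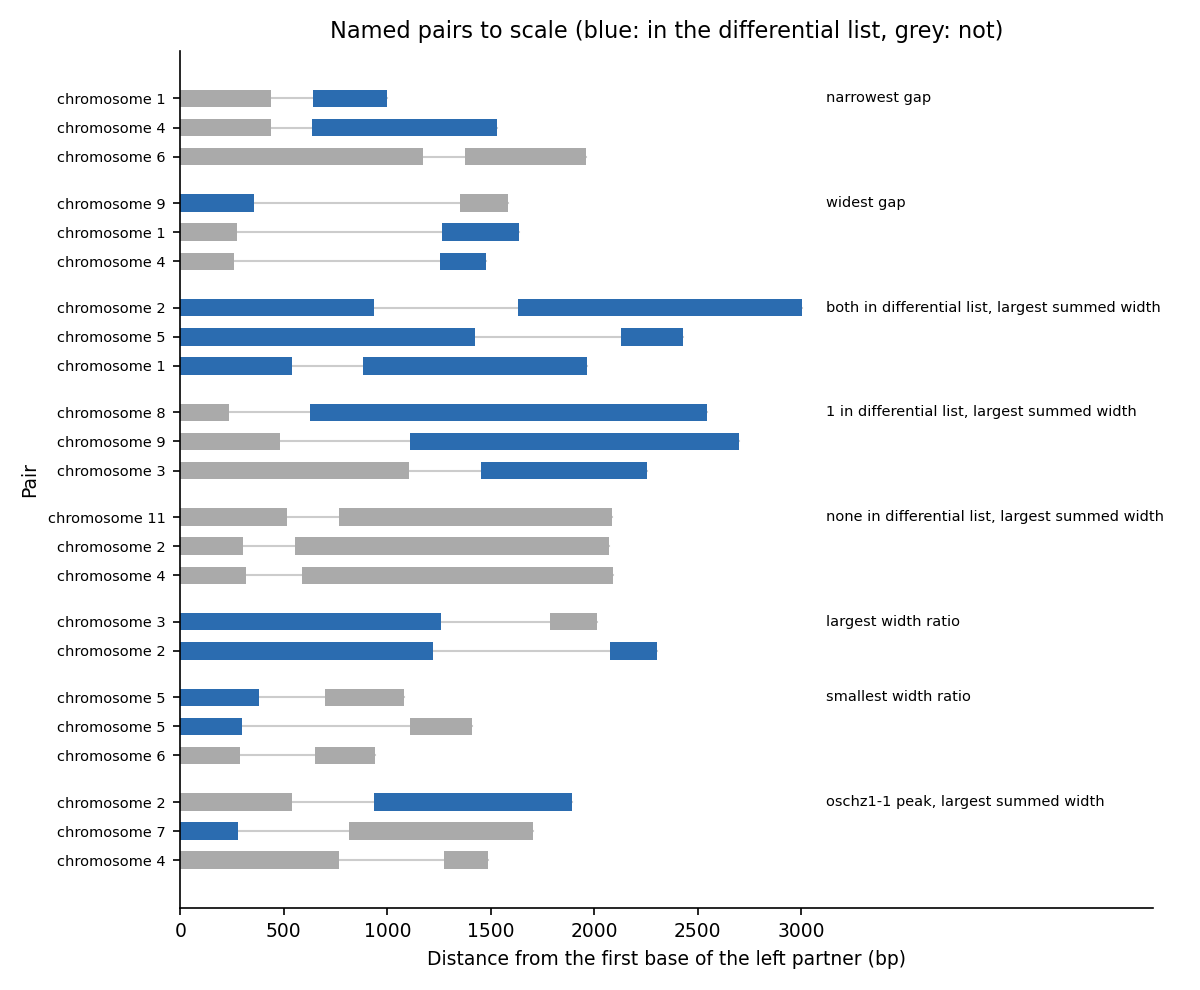
Map of the named pairs to scale, with the distance in bp from the first base of the left partner, blue bars for peaks in the differential list and grey bars for other peaks. Pairs of similar span differed in the number of differential partners, and the widest pair, with 2 differential partners, spans 3004 bp.

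The mutant without tagged protein shows the background of the antibody. An oschz1-1 peak was found at 11 members, 1.00% of them (0.561 to 1.79%), against 0.986% of all COM1 peaks. They belonged to 11 different pairs (2.01%, 1.12 to 3.56%), and in no pair did both partners have one. None of the 11 members was differential, against 6 of all 112 COM1 peaks with an oschz1-1 peak (5.36%, 2.48 to 11.2%). This status is not independent of the oschz1-1 list, since the differential list was made by comparison with the same mutant. The other partner of the pair was differential in 8 of the 11 (72.7%, 43.4 to 90.3%), an interval that lies above the 39.0% of all members but rests on 11 pairs. The oschz1-1 peak was at the wider partner in 7 pairs and at the narrower one in 4, and in no further pair did it lie in the gap. The widest of these pairs, on chromosome 2 from 11377144 to 11379035, had an oschz1-1 peak at its left peak of 540 bp, and its right peak of 954 bp was differential. On chromosome 7 from 8828909 to 8830613 the left peak of 279 bp was differential and the right one of 892 bp had the oschz1-1 peak. On chromosome 4 from 28061876 to 28063362 the oschz1-1 peak was at the left peak of 766 bp, and no partner was differential. In these 11 pairs, only 1 partner was thus also called without the tagged protein. With such peaks at 1.00% of the members, near the share of all COM1 peaks, pairs with both would be rare in any case.

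Isolated close pairs were found on all 12 chromosomes, at 1.47 pairs per Mb over the 372.7 Mb spanned by the list, and none on the additional sequence ChrSy. Their number ranged from 72 pairs among 1422 peaks on chromosome 1 to 24 pairs among 739 peaks on chromosome 12, whereas chromosomes 9 and 10 had 39 and 42 pairs among 730 and 748 peaks. Relative to the peaks, chromosome 4 had the most, with 56.6 pairs per 1000 COM1 peaks (44.7 to 71.5), and chromosome 10 had 56.1 (41.8 to 75.03). Chromosome 12 had the fewest with 32.5 (21.9 to 47.9), and chromosome 6 had 37.1 (26.9 to 50.9). The intervals of these 4 chromosomes overlap, and the order among the 12 was not tested.

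The members on chromosome 12 were differential in 14 of 48 cases (29.2%, 18.2 to 43.2%), the lowest share of any chromosome, although chromosome 12 had the highest share among all COM1 peaks of a chromosome (46.8%, 43.2 to 50.4%). On chromosome 4, 33.8% (26.3 to 42.3%) of the members and 44.5% (41.7 to 47.4%) of all peaks were differential. The highest share of members was 44.2% (35.1 to 53.8%) on chromosome 3, where 42.0% of all peaks were. Members had the lower share on 8 of the 12 chromosomes. These include chromosome 11, where the shares were nearly equal (43.90% of the members and 43.93% of all peaks). The differences by chromosome were not tested. Median gaps by chromosome ranged from 342.5 bp on chromosome 6 to 576 bp on chromosome 4, and median widths of the members from 304.5 bp on chromosome 3 to 351.5 bp on chromosome 12.

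Along the chromosomes, divided into 10 equal segments of their spanned length, the pairs ranged from 38.1 per 1000 COM1 peaks in segment 4, counted from the first base, to 56.6 in segment 9. Segment 3 held 60 pairs (10.9%, 8.60 to 13.8%) and 9.48% of the COM1 peaks. Segments 4 and 5 held 43 and 44 pairs (7.85%, 5.88 to 10.4%, and 8.03%, 6.04 to 10.6%), and the last 3 segments held 66, 65 and 64 pairs. Of the COM1 peaks, 9.95% and 8.95% lay in segments 4 and 5 and 10.1 to 11.3% in each of the last 3. In each segment the interval of the pairs included the share of the peaks. The outermost segments of both ends together held 113 pairs (20.6%, 17.4 to 24.2%) and 20.2% of the COM1 peaks. Neighbouring pairs were a median of 449 kb apart, with an interquartile range of 162 to 949 kb, and 94 of 536 such distances (17.5%) were under 100 kb. Positions of centromeres were not used here.

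**Figure D5:**
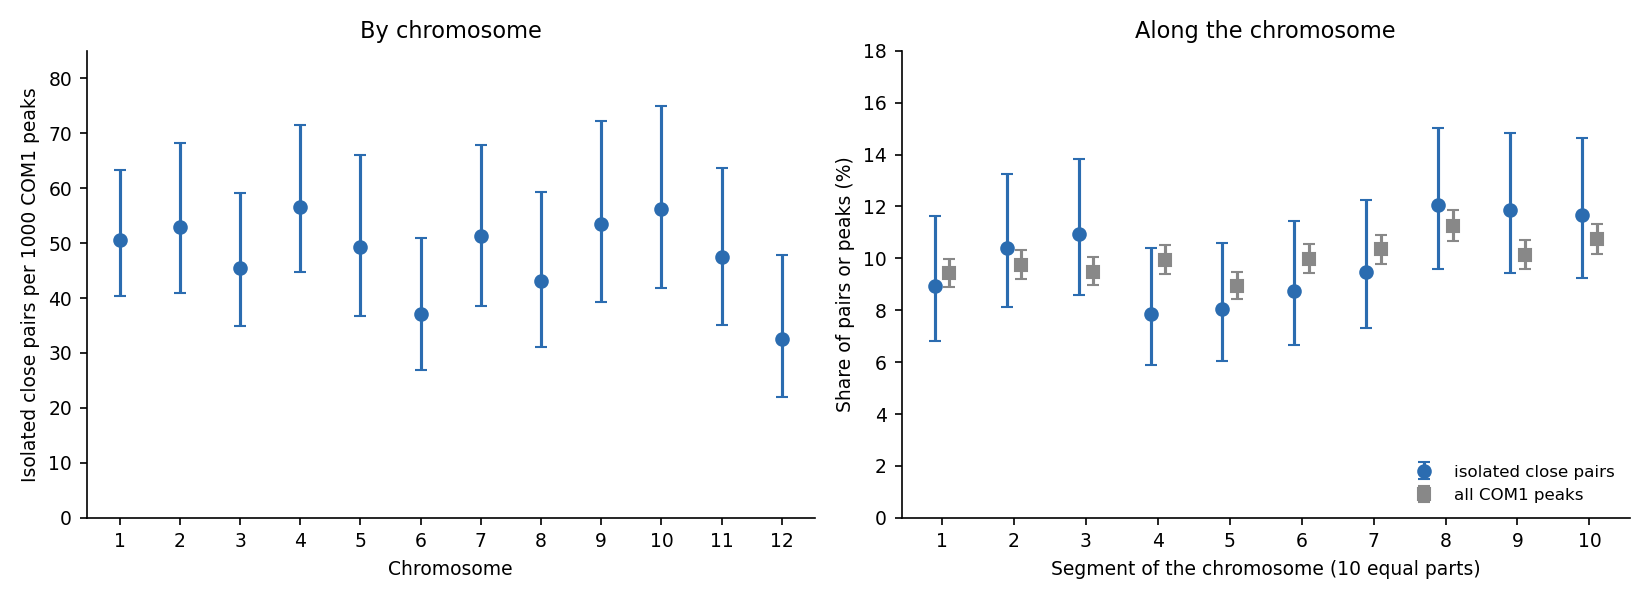
Isolated close pairs per 1000 COM1 peaks on each of the 12 chromosomes (left) and share of the pairs and of all COM1 peaks in each of 10 equal segments of the chromosomes (right), both with 95% Wilson intervals. Chromosome 12 stands lowest at 32.5 and chromosome 4 highest at 56.6 with overlapping intervals, and in every segment the interval of the pairs includes the share of the peaks.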

How the data were processed

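According to the methods of the study, read pairs were trimmed by the authors, aligned to MSU7 with Bowtie2, and freed of low-quality alignments and duplicates with Samtools. The results text and the labels name MACS2 for the peaks, whereas the methods name SICER. The methods state that peaks shared by both replicates were kept with ChIPpeakAnno and that samples were compared with DiffBind, and the lists themselves name neither step. The deposited lists hold only region borders, which are not a signal or a count, and coordinates are printed 1-based. The authors' comparison is used only as the presence of a region in their differential list.

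Lists were sorted, and pairs, overlaps (at least 1 bp) and distributions were computed in Python 3.11.15 (scipy 1.17.1, pandas 2.3.3, numpy 2.4.6), and figures were drawn with matplotlib 3.10.9. Every COM1 peak was assigned to 1 class by joining peaks at gaps of up to 5000 bp. Chromosome lengths were taken as the last listed peak end. The procedure was tested on simulated lists, in which all planted pairs were recovered. Pairs, classes and named examples (extremes of gap, width ratio and summed width) were chosen with earlier results of these data known. The reference table at hand is of another assembly, so that genes and sequences at the pairs were not used here.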

Additional observations from a re-analysis of the deposited data

How the results depend on the processing

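All alternatives were laid out with earlier results known. A total of 13 results were recomputed in 88 alternative values, of which 66 stayed within the interval of the main value (for counts, within 1.5 times). Part of the 66 could not move. No pair lay on ChrSy, so that leaving it out repeated the main values. None of the 3 differential shares changed when the differential region had to have the borders of the peak, or when each had to be covered by at least 50%. This outcome was fixed, because every differential member already had the borders of its region. The medians of width and width ratio, the differential share of the members and the shares of pairs with 1 or both partners differential stayed within their intervals under every alternative that was run for them. Gene context was laid out but not run, because no annotation of MSU7 was used here. No paired analysis was possible because the peaks come as 1 list for each genotype, without replicates, which could therefore not be left out in turn either.

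The values that moved are mostly those that the limits of the rule set. With a gap limit of 500 bp there were 290 pairs, with a median gap of 318 bp, a median midpoint distance of 700 bp, 70.3% with a gap of 1 to under 2 repeats, 4 pairs with an oschz1-1 peak, and 16.2 (chromosome 12) to 35.3 (chromosome 7) pairs per 1000 peaks. With a limit of 2000 bp there were 855 pairs, with medians of 754 and 1156 bp, 23.9% with such a gap, and 63.9 (chromosome 6) to 88.2 (chromosome 10) pairs per 1000 peaks. With no other peak within 2000 bp, 17 pairs had an oschz1-1 peak and the highest chromosome was 1 with 73.1 pairs per 1000 peaks. With none within 10000 bp there were 362 pairs, at most 40.1 per 1000 peaks (chromosome 4). A repeat of 200 bp gave 41.6% and midpoint distances 0% of pairs from 1 to under 2 repeats. This 0% was fixed by the floors of gap and peak width. Per Mb, the chromosomes ranged from 0.873 (chromosome 12) to 1.83 (chromosome 4). The outer 2 of 10 segments at each end held 42.9% of the pairs (38.8 to 47.1%) and 40.0% of the COM1 peaks. Rates per Mb and shares of a larger part of the chromosomes are other quantities than the main values. They had to move as well. The lowest or highest chromosome thus depended on the limits.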

Other observations

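Long stretches without an isolated close pair existed on all 12 chromosomes. The longest lay between pairs on chromosome 12, from 11403338 to 15422479 (4.02 Mb), followed by chromosome 2, from 1933161 to 5735981 (3.80 Mb), and chromosome 11, from 9795268 to 13541521 (3.75 Mb). The shortest of these per-chromosome maxima was 2.08 Mb, on chromosome 1. Chromosome 12 also had the fewest pairs per Mb (0.873), and the COM1 peaks inside the stretches are not given here. The nearest neighbouring pairs, in contrast, lay 5.12 kb apart, on chromosome 1.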
